A study of Mus musculus with 6 samples.

Results

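The transcription regulators Mecom, Meis1, Hlf, Prdm16, Mycn and Mllt3, each known for keeping blood stem cells able to renew themselves, were followed across 3 groups of sorted mouse bone marrow cells. The genes were taken by symbol. Of 45101 probe sets on the array, 18 were annotated to exactly 1 of the 6 symbols, and each gene was represented by the probe set with the highest mean over the 6 arrays, so that 6 of 18194 measured genes are described. Lymphoid-primed multipotent progenitors (LMPP) were sorted as lineage-negative, SCA1+, KIT+ and FLT3hi cells from adult E2A-KO mice on a C57bl/6 background. Cells of that same phenotype came from adult wild-type (WT) C57bl/6 mice. The stem cell fraction (LSK FLT3-) had the same lineage, SCA1 and KIT gate but no FLT3, and came from adult wild-type C57bl/6 mice only. Each group had 2 arrays of whole sorted populations. The labels give neither the E2A allele nor the cells that carry the deletion, nor do they say that both arrays of a group hold RNA of different mice or sorts. The p-values therefore cover the spread between arrays alone, and that spread may be technical.

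Blood stem cells keep their identity through a small set of transcription regulators whose transcripts are lost as cells commit to a lineage. Members of the set act in different ways: PR domain and zinc finger proteins silence or activate genes with corepressors, MEIS1 binds DNA together with HOX and PBX homeodomain proteins, HLF binds as a basic leucine zipper dimer, MYCN pairs with MAX at E-box sequences, and MLLT3 reads acetylated histones and brings in elongation factors. LMPP lie downstream of stem cells and have largely given up the megakaryocyte and erythroid fates. E2A, encoded by Tcf3, is an E-box binding helix-loop-helix protein needed for lymphoid development. The question posed by the study is what changes in LMPP that lack it.

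Values are log2 of the RMA value of a probe set, which has no absolute unit and is not compared between probe sets. The array median lay between 3.90 and 4.04, and differences between values near or below it are understated, because the array compresses dim signals. The upper quartile was 5.78 to 5.82 on the 4 LMPP arrays and 6.13 to 6.15 on the 2 WT LSK FLT3- arrays, so the arrays were not on one common distribution, and comparisons with WT LSK FLT3- were also made after quantile normalization. The Tcf3 probe set measured 6.80 and 6.53 in E2A-KO LMPP, 6.93 and 6.86 in WT LMPP and 7.27 and 7.41 in WT LSK FLT3-. It did not pass the test between E2A-KO LMPP and WT LMPP (adjusted p = 0.500, limma with Benjamini-Hochberg adjustment), and since its place relative to the deleted part is not known here it checks nothing about the knockout. Of the gate genes, Flt3 measured 10.70 and 10.76 in E2A-KO LMPP and 10.80 and 10.81 in WT LMPP, against 8.87 and 8.76 in WT LSK FLT3-. Kit, part of the gate of every group, was lower in both LMPP groups, at 8.85 and 8.47 in E2A-KO LMPP and 9.05 and 8.91 in WT LMPP, against 10.05 and 10.38 in WT LSK FLT3-.

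All 6 genes were lower in both LMPP groups than in WT LSK FLT3-, and none passed the test between the LMPP groups. In WT LMPP against WT LSK FLT3-, 6 of 6 fell at an adjusted p under 0.05, while 23.7% of all genes were called lower. Each fall was at least 2-fold, as for 5.37% of all genes, and in each the arrays of the groups did not overlap, as for 39.3% of all genes in that direction. E2A-KO LMPP gave the same count against WT LSK FLT3-: 6 of 6 fell at least 2-fold, against 26.5% of all genes called lower, 6.49% called lower by 2-fold or more and 41.1% lower with no overlap. For all 6, both WT LSK FLT3- arrays lay above all 4 LMPP arrays, as for 34.3% of all genes. Between E2A-KO LMPP and WT LMPP, 0 of 6 were called by limma, against 1.37% of all genes, and 1 (Hlf) had an unadjusted p under 0.05, as did 14.6% of all genes. In whole sorted populations, fewer cells that express a gene and less RNA per cell cannot be told apart.

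**Figure D1:**
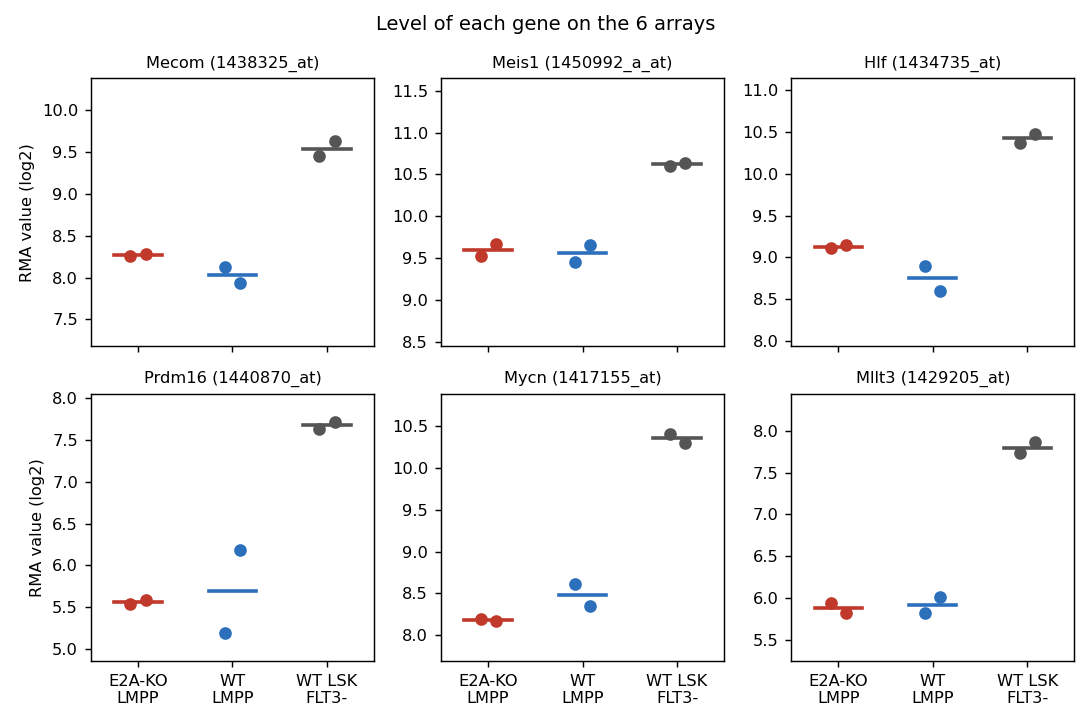
Log2 RMA value of the chosen probe set of each gene on the 6 arrays, by group; points are arrays and bars are group means (n = 2). In each panel both WT LSK FLT3- arrays lie above all 4 LMPP arrays, and each panel spans the same number of log2 units.

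**Figure D2:**
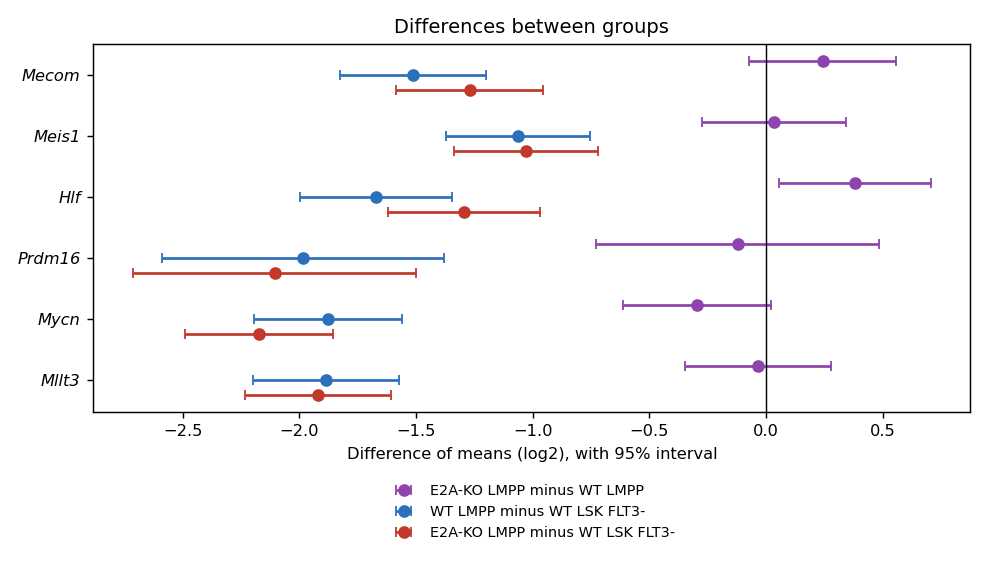
Difference of group means (log2) with its 95% interval from limma for the 6 genes in the 3 comparisons. Both comparisons with WT LSK FLT3- lie below 0 for each gene, between -1.03 and -2.17, while E2A-KO LMPP minus WT LMPP lies between -0.30 and 0.38.

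Mecom and Prdm16 encode the related PR domain zinc finger proteins of the set. Mecom, whose product is required for long-term self-renewal of mouse blood stem cells, measured 8.26 and 8.28 in E2A-KO LMPP, 8.13 and 7.93 in WT LMPP and 9.45 and 9.63 in WT LSK FLT3-. Both LMPP groups lay more than 1 log2 unit below the stem cell fraction, with the E2A-KO arrays slightly above the WT LMPP arrays. Mecom fell by 1.51 on the log2 scale in WT LMPP against WT LSK FLT3- (SE 0.14, 2.85-fold lower, adjusted p = 0.000171) and by 1.27 in E2A-KO LMPP against WT LSK FLT3- (2.41-fold lower, adjusted p = 0.000353). The difference between E2A-KO LMPP and WT LMPP was 0.24, with a 95% interval of -0.07 to 0.56 (adjusted p = 0.466).

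Prdm16, which maintains stem cells in blood and is also known from brown fat, measured 5.54 and 5.59 in E2A-KO LMPP, 5.19 and 6.18 in WT LMPP and 7.64 and 7.71 in WT LSK FLT3-. The WT LMPP arrays were the farthest apart of any group of the 6 genes (SD 0.70) and enclosed both E2A-KO values. Prdm16 fell by 1.98 in WT LMPP against WT LSK FLT3- (SE 0.27, 3.96-fold lower, adjusted p = 0.00102), and by 1.49 and 2.48 when WT LMPP replicate 1 and replicate 2 were left out in turn. Prdm16 fell by 2.11 in E2A-KO LMPP against the same arrays (4.30-fold lower, adjusted p = 0.000701). Between E2A-KO LMPP and WT LMPP the difference was -0.12, with an interval of -0.73 to 0.48, and its sign followed the WT LMPP array used: -0.62 without replicate 1 and 0.37 without replicate 2.

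The promoter windows of the 2 genes are shown because they share a run of bases. Windows reached from 250 bases before to 50 bases after an annotated start site and were taken from RefSeq on GRCm38.p6, which holds 8 such windows for the 6 genes, all on the minus strand. The window of the upstream Mecom start at chr3:30509710-30510009 and that of Prdm16 at chr4:154636824-154637123 share 24 bases in a row, in capitals here, beginning 26 bases after the Mecom start site and 9 bases after the Prdm16 start site. The run ends on the last base of the Mecom window, so its full length may exceed 24. Of 32851 windows of 27025 genes, these 2 hold the run as written. The next longest run shared between windows of different genes of the set had 12 bases. The opposite strand was not searched for runs. The run contains CATGTG, a match to the E-box CANNTG, which 72.3% of all windows hold on either strand.
Mecom: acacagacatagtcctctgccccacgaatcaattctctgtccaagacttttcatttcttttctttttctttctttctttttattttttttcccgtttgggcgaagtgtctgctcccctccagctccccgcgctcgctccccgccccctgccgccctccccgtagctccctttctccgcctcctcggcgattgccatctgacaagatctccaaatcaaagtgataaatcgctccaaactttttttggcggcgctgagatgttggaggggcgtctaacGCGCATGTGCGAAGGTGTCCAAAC
Prdm16: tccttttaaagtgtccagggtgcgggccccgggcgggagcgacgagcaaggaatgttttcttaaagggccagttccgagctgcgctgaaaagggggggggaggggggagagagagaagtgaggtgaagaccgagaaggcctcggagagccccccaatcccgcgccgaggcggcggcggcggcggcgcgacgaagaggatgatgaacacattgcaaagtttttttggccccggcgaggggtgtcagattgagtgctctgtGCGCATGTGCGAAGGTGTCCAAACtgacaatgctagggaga

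Meis1, the homeodomain partner of HOX and PBX proteins, measured 9.52 and 9.66 in E2A-KO LMPP, 9.46 and 9.66 in WT LMPP and 10.60 and 10.64 in WT LSK FLT3-. The LMPP groups overlapped, and both lay about 1 log2 unit under the stem cell fraction, the smallest fall of the 6 genes. The fall was 1.06 in WT LMPP against WT LSK FLT3- (SE 0.14, 2.09-fold lower, adjusted p = 0.00084) and 1.03 in E2A-KO LMPP against WT LSK FLT3- (2.04-fold lower, adjusted p = 0.000866). Between E2A-KO LMPP and WT LMPP the difference was 0.03, with an interval of -0.27 to 0.34.

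The other Meis1 probe sets went another way. Probe set 1443260_at measured 7.56 and 7.93 in E2A-KO LMPP, 6.76 and 7.06 in WT LMPP and 6.76 and 6.71 in WT LSK FLT3-. It stood highest in E2A-KO LMPP: it rose by 1.01 in E2A-KO LMPP against WT LSK FLT3- (adjusted p = 0.00316), while WT LMPP minus WT LSK FLT3- was 0.17 and not called. E2A-KO LMPP minus WT LMPP was 0.83 with an adjusted p of 0.066 (limma), and it stayed uncalled in 10 of 12 alternatives. The adjusted p was 0.0491 after quantile normalization and 0.0105 with a variance trend, but 0.0733 after centring and 0.179 with only 4 arrays. With 1 array left out the difference was 0.65 to 1.02. Probe set 1459423_at, dimmer, rose by 0.65 in E2A-KO LMPP against WT LSK FLT3- (adjusted p = 0.043), a call that held in 6 of 12 alternatives. It was lost after either other scaling, without either E2A-KO LMPP array (0.66 and 0.63) and without either WT LSK FLT3- array (0.48 and 0.82). Where the Meis1 probe sets lie in the transcript is not known here, so the 3 signals cannot be assigned to isoforms. With all Meis1 probe sets averaged, WT LMPP minus WT LSK FLT3- was -0.26 (adjusted p = 0.200) and E2A-KO LMPP minus WT LSK FLT3- was 0.21 (adjusted p = 0.283), so the Meis1 calls rest on the brightest probe set.

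Hlf, a PAR basic leucine zipper factor that marks long-term stem cells, measured 9.12 and 9.14 in E2A-KO LMPP, 8.90 and 8.60 in WT LMPP and 10.37 and 10.48 in WT LSK FLT3-. The groups did not overlap, with E2A-KO LMPP between the others. Hlf fell by 1.67 in WT LMPP against WT LSK FLT3- (SE 0.14, 3.19-fold lower, adjusted p = 0.000125) and by 1.29 in E2A-KO LMPP against WT LSK FLT3- (2.45-fold lower, adjusted p = 0.000376). Its difference between E2A-KO LMPP and WT LMPP, 0.38 with an interval of 0.05 to 0.71, had an unadjusted p of 0.0272 and did not pass after Benjamini-Hochberg adjustment over all genes (adjusted p = 0.268).

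The other Hlf probe set, 1434736_at, gave the same order: 9.22 and 9.04 in E2A-KO LMPP, 8.60 and 8.45 in WT LMPP, and 9.78 and 10.001 in WT LSK FLT3-. It fell by 0.76 in E2A-KO LMPP and by 1.36 in WT LMPP against WT LSK FLT3- (adjusted p = 0.0066 and 0.000576), and the E2A-KO LMPP call was lost after quantile normalization (-0.48) or without WT LSK FLT3- replicate 2 (-0.64). E2A-KO LMPP minus WT LMPP was 0.61 (adjusted p = 0.116), and passed with a variance trend alone (0.00848). In human leukaemia a known translocation joins E2A to HLF, but these are measurements of the mouse Hlf transcript only.

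E2A and its relatives bind E-boxes, and CAGGTG and CAGCTG are forms often found at their sites. On either strand CAGGTG was in 1 of the 8 windows of the set (Hlf, read there as CACCTG) and in 20.2% of all windows, and CAGCTG in 1 of 8 (Mllt3) and in 16.3% of all windows. The general form CANNTG, which includes both, was in 7 of 8 and 72.3%, and CACGTG, the form preferred by MYC and MAX, was in 0 of 8 and 7.15%. The core TGACAG of MEIS and TGIF sites was in 3 of 8 and 19.2%. The Hlf window at chr11:90390868-90391167 and the upstream Mllt3 window at chr4:88033358-88033657 hold a CAGGTG and a CAGCTG match and are shown with each CANNTG in capitals; a match is a description of the letters and not a binding site.
Hlf: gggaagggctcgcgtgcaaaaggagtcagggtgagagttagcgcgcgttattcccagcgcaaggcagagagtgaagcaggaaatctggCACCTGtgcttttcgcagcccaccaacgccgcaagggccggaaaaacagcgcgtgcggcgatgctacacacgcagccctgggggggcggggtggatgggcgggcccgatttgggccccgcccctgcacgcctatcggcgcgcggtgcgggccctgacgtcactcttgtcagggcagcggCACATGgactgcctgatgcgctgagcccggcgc
Mllt3: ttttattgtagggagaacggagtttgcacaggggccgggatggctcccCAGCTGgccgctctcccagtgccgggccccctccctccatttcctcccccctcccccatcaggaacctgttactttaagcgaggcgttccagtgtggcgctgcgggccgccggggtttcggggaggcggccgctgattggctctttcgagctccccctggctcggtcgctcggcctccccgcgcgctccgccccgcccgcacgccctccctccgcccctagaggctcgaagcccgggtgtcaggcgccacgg

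Mycn, the MYC family member that acts together with Myc in stem cell maintenance, measured 8.19 and 8.17 in E2A-KO LMPP, 8.61 and 8.34 in WT LMPP and 10.41 and 10.30 in WT LSK FLT3-. It was lowest in E2A-KO LMPP, with no overlap between any groups. Mycn fell by 1.88 in WT LMPP against WT LSK FLT3- (SE 0.14, 3.67-fold lower, adjusted p = 5.88e-05) and fell by 2.17 in E2A-KO LMPP against WT LSK FLT3- (4.51-fold lower, adjusted p = 2.82e-05). Between E2A-KO LMPP and WT LMPP the difference was -0.30, with an interval of -0.61 to 0.02 (adjusted p = 0.375). Probe set 1425922_a_at, which was below the array median on all 4 LMPP arrays, fell by 0.81 in E2A-KO LMPP against WT LSK FLT3- (adjusted p = 0.0188). That call was lost without E2A-KO LMPP replicate 1 (-0.57), WT LSK FLT3- replicate 1 (-0.88) or replicate 2 (-0.74). Probe set 1425923_at was called in no comparison.

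Mllt3, also known as AF9, carries a YEATS domain that reads histone acylation and recruits DOT1L and the elongation machinery. It measured 5.94 and 5.82 in E2A-KO LMPP, 5.82 and 6.01 in WT LMPP and 7.73 and 7.87 in WT LSK FLT3-. The LMPP groups overlapped, and the gap to the stem cell fraction was more than 1.5 log2 units on every array. Mllt3 fell by 1.89 in WT LMPP against WT LSK FLT3- (SE 0.14, 3.69-fold lower, adjusted p = 5.4e-05) and by 1.92 in E2A-KO LMPP against WT LSK FLT3- (3.78-fold lower, adjusted p = 5.42e-05). Between E2A-KO LMPP and WT LMPP the difference was -0.03, with an interval of -0.35 to 0.28. All 3 Mllt3 probe sets fell in both comparisons: the change was -2.03 in E2A-KO LMPP and -1.82 in WT LMPP for 1431890_a_at, and -1.31 in E2A-KO LMPP and -0.92 in WT LMPP for the dim 1453622_s_at. The WT LMPP call of 1453622_s_at (adjusted p = 0.0283) was lost without WT LMPP replicate 2 (-0.78) or either WT LSK FLT3- array (-0.72 and -1.12), and its E2A-KO LMPP call was lost without WT LSK FLT3- replicate 1 (-1.11).

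**Figure D3:**
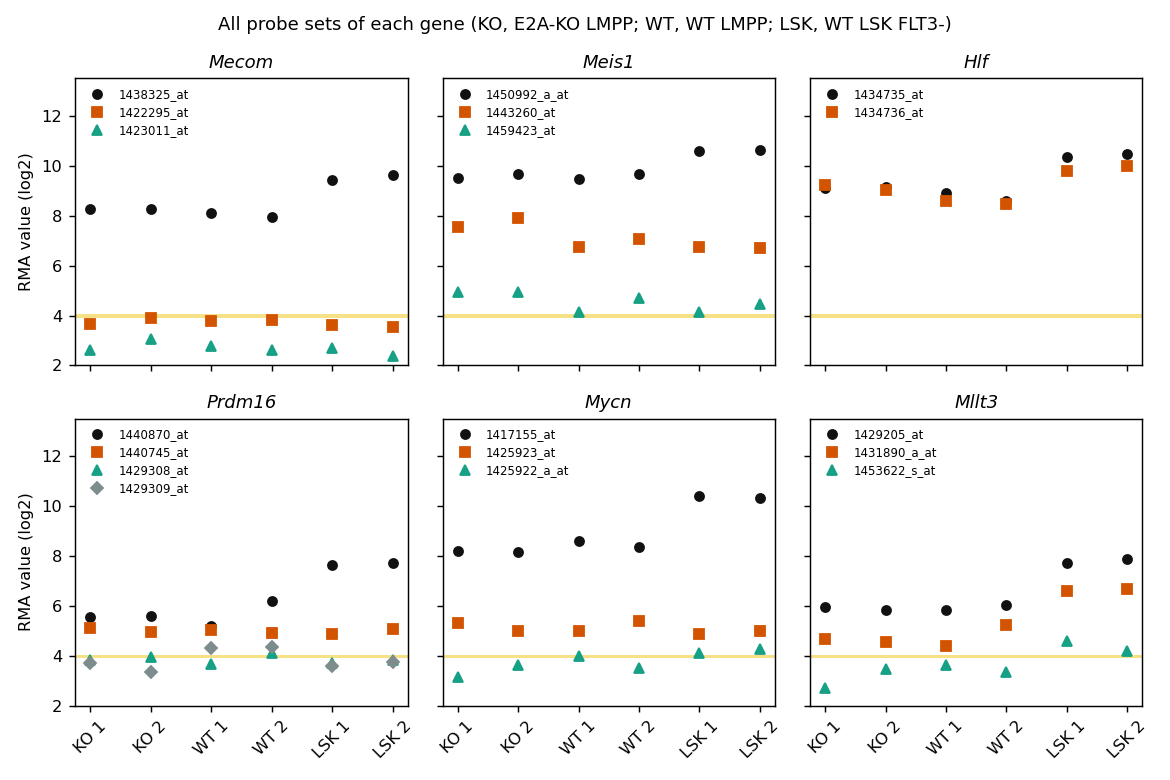
Log2 RMA value of all 18 probe sets of the 6 genes on each array; black circles mark the chosen probe set and the yellow band spans the array medians. Mllt3 and Hlf probe sets move together, while Mecom, Meis1, Prdm16 and Mycn each have dimmer probe sets that do not follow the chosen one.

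Over all 18 probe sets, 9 fell and 1 rose in WT LMPP against WT LSK FLT3-, where 15.5% of the 45101 probe sets were called lower and 8.09% higher. Of the same probe sets, 10 fell and 2 rose in E2A-KO LMPP against WT LSK FLT3-, against 18% called lower and 10.5% called higher. Of the 18, 0 were called by limma between E2A-KO LMPP and WT LMPP, against 0.987% of all, and 5 had an unadjusted p under 0.05, as did 13.6% of all probe sets. The rise in WT LMPP belonged to Prdm16 probe set 1429309_at, at 3.71 and 3.33 in E2A-KO LMPP, 4.32 and 4.35 in WT LMPP and 3.59 and 3.74 in WT LSK FLT3-. This signal, close to the array median, was 0.67 higher in WT LMPP than in WT LSK FLT3- (adjusted p = 0.0171, limma). That call was lost without either WT LSK FLT3- array, at 0.60 and 0.75. E2A-KO LMPP minus WT LMPP was -0.82 (adjusted p = 0.0573, limma), and stayed uncalled in 9 of 12 alternatives. It passed after centring or quantile normalization and with a variance trend. The other Prdm16 probe sets were called in no comparison, and nor were Mecom probe sets 1422295_at and 1423011_at, which were below the array median on all 6 arrays. When every probe set of a gene was averaged in place of taking the brightest, 4 of 6 genes fell in each comparison with WT LSK FLT3-. Prdm16 at -0.30 (adjusted p = 0.131) joined Meis1 in losing its call in WT LMPP, and Mecom at -0.26 (adjusted p = 0.122) joined Meis1 in E2A-KO LMPP.

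Among all 18194 genes ordered by the change in WT LMPP against WT LSK FLT3-, counted from the strongest fall, Prdm16 was at rank 116, Mllt3 at 129, Mycn at 131, Hlf at 192, Mecom at 276 and Meis1 at 816. The median of the 6 was -1.78 against -0.01 for all genes, and in E2A-KO LMPP against WT LSK FLT3-, which shares the 2 WT LSK FLT3- arrays, -1.61 against -0.02. Neighbours in this order from Prdm16 to Mecom lay within each other's 95% intervals, while Meis1 lay outside that of Mecom. The calls of the 6 held under both other scalings, with smaller falls after quantile normalization, where Meis1 was at -0.84 and Mecom at -1.21 in WT LMPP. The split of all genes was less stable: in WT LMPP against WT LSK FLT3-, 69.5% of the called genes were lower as deposited, 52.6% after quantile normalization and 82.2% after each array was centred on its median. The shares for E2A-KO LMPP were 70.7%, 56.0% and 85.4%. Centring moved the median change of all genes to -0.16 in E2A-KO LMPP and -0.12 in WT LMPP against WT LSK FLT3- and moved every gene by the same amount.

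**Figure D4:**
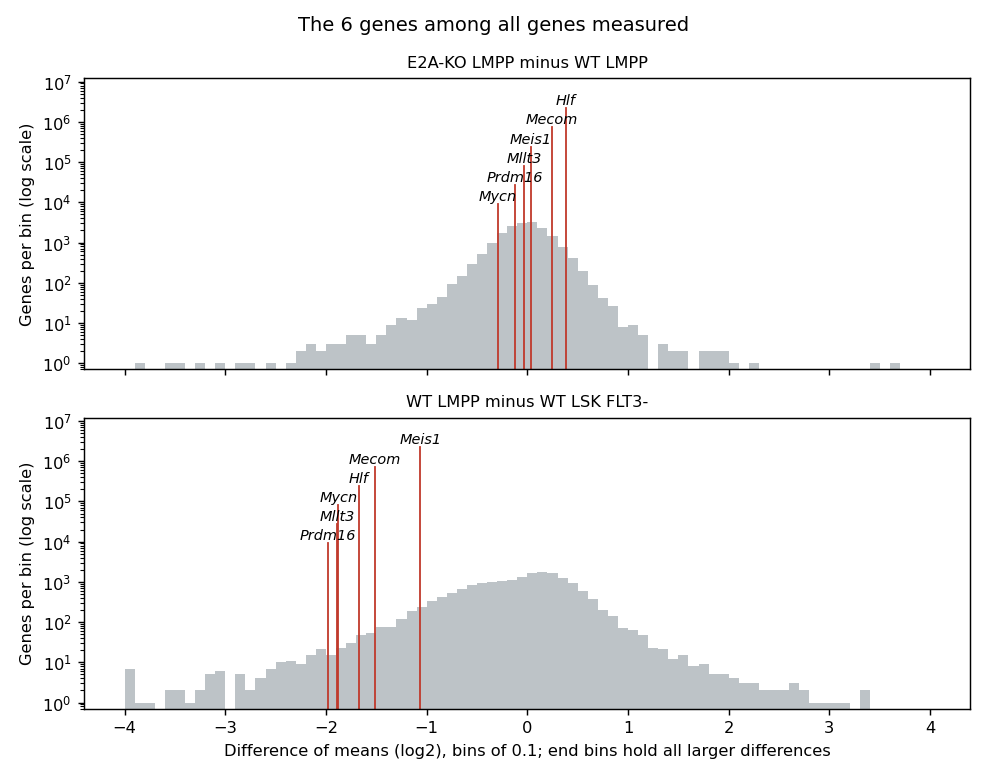
Number of genes per bin of the difference of means (log2, bins of 0.1, counts on a log axis) for E2A-KO LMPP minus WT LMPP above and WT LMPP minus WT LSK FLT3- below; red lines mark the 6 genes, and their heights carry no value. The 6 lie between -0.30 and 0.38 above and between -1.98 and -1.06 below.

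Within the set, E2A-KO LMPP arrays lay above WT LMPP arrays without overlap for 2 genes (Mecom and Hlf), as for 18.8% of all genes, below without overlap for 1 (Mycn), as for 22.8%, and overlapped for 3. The median difference of the 6 was -9.3e-05 (log2), against -0.02 for all genes. The upper ends of the 95% intervals were 0.56 for Mecom, 0.34 for Meis1, 0.71 for Hlf, 0.48 for Prdm16, 0.02 for Mycn and 0.28 for Mllt3, and the lowest lower end was -0.73 for Prdm16. None of the 6 intervals reached a 2-fold difference, and the missed threshold does not show equal levels.

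As a description of how alike the profiles were, each gene was centred on its mean over the 6 arrays and the root mean square difference of log2 values was taken. Within the set Mecom and Hlf were closest (0.0795) and Meis1 and Prdm16 farthest apart (0.53). Of the measured genes outside the set, Mecom was closest to Galnt4 (0.0811), Khk (0.0822) and Adgra3 (0.085), so that Hlf was nearer to it than any of these, and Meis1 to Zfp507 (0.03), Tmem128 (0.05) and Cwf19l2 (0.05). Hlf was closest to the adhesion receptor gene Adgra3 (0.05), the IgE receptor subunit gene Ms4a2 (0.07) and Vsig10 (0.080), the last of which was farther than Mecom. Prdm16 was closest to Adgrl2 (0.11), the integrin gene Itgb3 (0.15) and Septin8 (0.18), Mycn to the thrombin receptor gene F2r (0.09), App (0.10) and Snap23 (0.13), and Mllt3 to the activin receptor gene Acvr1b (0.07), Dstn (0.09) and the TIE2 ligand gene Angpt1 (0.09). All 6 arrays enter each distance, including the step between the LMPP groups and WT LSK FLT3-.

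Of 70 measured relatives, partners and reported targets of the 6 proteins, 21 fell and 6 rose in WT LMPP against WT LSK FLT3-, against 23.7% of all genes called lower and 10.4% higher, with a median change of -0.17. Of the 70, 25 fell and 5 rose in E2A-KO LMPP against WT LSK FLT3-, against 26.5% and 11% of all genes, with a median of -0.24. After quantile normalization 7 fell and 8 rose in WT LMPP, beside 10.1% of all genes called lower and 9.10% higher. For E2A-KO LMPP 10 fell and 9 rose in that setting, beside 11.1% of all genes called lower and 8.76% higher. The median change of the 70 was then 0.05 for WT LMPP, against 0.06 for E2A-KO LMPP. The lean towards falls thus depended on the scaling, for the 70 as for all genes. Among the 70, 0 were called by limma between E2A-KO LMPP and WT LMPP, against 1.37% of all genes, and 10 had an unadjusted p under 0.05, as did 14.6% of all genes.

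Among 12 HOX and TALE partners, 2 fell and 2 rose in WT LMPP against WT LSK FLT3-, beside 23.7% of all genes called lower and 10.4% higher. Pbx3, a cofactor of MEIS1, fell by 1.47 and held after quantile normalization, and the repressor Tgif1 fell by 0.71 and did not. Hoxb4 (0.56) and Pknox2 (0.50) were the rises. Both calls were lost without WT LMPP replicate 1 (0.40 for Hoxb4 and 0.26 for Pknox2), without WT LSK FLT3- replicate 1 (0.59 and 0.54) and without replicate 2 (0.54 and 0.46). Against WT LSK FLT3-, 4 of the 12 fell and 2 rose in E2A-KO LMPP, beside 26.5% of all genes called lower and 11% higher. Among the called partners were Pbx3 at -1.63, Pknox2 at 0.76, Tgif1 at -0.68 and Hoxb4 at 0.68. Of these 4, Pbx3 kept its call under all alternatives. The Tgif1 call was lost after quantile normalization (-0.24) and without WT LSK FLT3- replicate 1 (-0.55), the Hoxb4 call with probe sets averaged (0.36) and without E2A-KO LMPP replicate 1 (0.50), and both the Hoxb4 and Pknox2 calls without either WT LSK FLT3- array. With probe sets averaged Pknox2 was at 0.31 and not called. Meis2 and Meis3, the closest relatives of Meis1, had the largest uncalled differences between E2A-KO LMPP and WT LMPP, at -0.54 (adjusted p = 0.213) and 0.40 (adjusted p = 0.287), both with LMPP means below the array median.

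Of 10 other PR domain genes, 3 fell and 0 rose in each comparison with WT LSK FLT3-. Prdm2 at -0.93, Prdm15 at -0.75 and Prdm10 at -0.75 in WT LMPP were the falls there, and Prdm2 at -0.77, Prdm15 at -0.77 and Prdm10 at -0.74 in E2A-KO LMPP. After quantile normalization Prdm10 alone of these kept its call in either group, and with probe sets averaged Prdm2 (-0.10) and Prdm10 (-0.28) were not called in E2A-KO LMPP. Of 8 corepressors used by MECOM and PRDM16, 3 fell in WT LMPP, beside 23.7% of all genes: Ctbp2 at -1.41, Skil at -1.07 and Ski at -0.71. Ski lost its call after quantile normalization. In E2A-KO LMPP 4 fell against WT LSK FLT3-, beside 26.5% of all genes: Skil at -1.31, Ski at -1.26, Ctbp2 at -1.10 and Ctbp1 at -0.52. The Ctbp1 call was lost after quantile normalization (-0.25) and when any 1 array of either group was left out (-0.58 to -0.46). Ski had the largest uncalled difference between E2A-KO LMPP and WT LMPP, at -0.55 (adjusted p = 0.098).

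Among 3 relatives of HLF, Dbp fell by 0.64 and the related repressor gene Nfil3 rose by 0.79 in WT LMPP against WT LSK FLT3-, and the values in E2A-KO LMPP against WT LSK FLT3- were -0.87 and 0.74, both called. Dbp lost its WT LMPP call after quantile normalization (-0.25) and without WT LSK FLT3- replicate 1 (-0.56), and Tef was not called. The Nfil3 call in E2A-KO LMPP was lost after quantile normalization (0.67), without E2A-KO LMPP replicate 1 (0.43) and without either WT LSK FLT3- array (0.68 and 0.81). In WT LMPP it was lost without WT LMPP replicate 2 (0.75) and without either WT LSK FLT3- array (0.72 and 0.85). Of 12 MYC and MAX network genes, 3 fell and 2 rose in WT LMPP against WT LSK FLT3-. Of all genes, 23.7% were called lower there and 10.4% higher. For E2A-KO LMPP 4 fell and 1 rose, beside 26.5% of all genes called lower and 11% higher. After quantile normalization 0 of the 12 fell and 2 rose in each LMPP group. The share of all genes called lower was then 10.1% for WT LMPP, against 11.1% for E2A-KO LMPP. The share called higher was 9.10% for WT LMPP, against 8.76% for E2A-KO LMPP. Mxd3, a MAX partner that opposes MYC, rose by 1.18 in WT LMPP but was at 0.57 and not called with probe sets averaged, and Mycl rose by 0.94, with WT LSK FLT3- values below the array median. Myc fell by 0.41, a call that was lost after quantile normalization (-0.09), while Mycn fell by 1.64 in that setting, and Mlx at -0.55 was lost in it too. The Myc and Mlx calls were also lost when any 1 array of either group was left out. Myc was then at -0.48 to -0.34 and Mlx at -0.66 to -0.43. The falls in E2A-KO LMPP included Mxi1 at -0.78, Mlx at -0.57 and Mga at -0.43, which were -0.35, -0.32 and 0.00375 after quantile normalization, none of them called. Without E2A-KO LMPP replicate 2 Mlx was at -0.34 and not called. Mxd3 measured 6.10 and 6.06 in E2A-KO LMPP, against 6.41 and 7.10 in WT LMPP, a difference of -0.67 (adjusted p = 0.188).

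Of 20 genes of the elongation and DOT1L complexes that MLLT3 joins, 7 fell and 1 rose in each comparison with WT LSK FLT3-; the rise was that of Ell, named after its values were seen. After quantile normalization 2 fell and 3 rose in each, with medians of 0.17 in E2A-KO LMPP and 0.066 in WT LMPP. In that setting 11.1% of all genes were called lower and 8.76% higher in E2A-KO LMPP, and 10.1% and 9.10% in WT LMPP. Ell2, an elongation factor of the super elongation complex, measured 5.21 and 4.95 in E2A-KO LMPP, 5.11 and 5.56 in WT LMPP and 7.50 and 7.55 in WT LSK FLT3-. The Ell2 change was -2.45 in E2A-KO LMPP and -2.19 in WT LMPP, beside -1.92 and -1.89 for Mllt3. Mllt10, a DOT1L partner, fell by 0.66 in E2A-KO LMPP and by 0.99 in WT LMPP. With all its probe sets averaged it was instead called higher in E2A-KO LMPP, at 0.36 (adjusted p = 0.0458, limma), and was at 0.11 and not called in WT LMPP. The fall in E2A-KO LMPP was not called after quantile normalization (-0.30). Men1, whose product binds the MLL protein, was at -0.93 in E2A-KO LMPP and -0.68 in WT LMPP. The PAF1 complex genes Cdc73 in WT LMPP (-0.69) and Leo1 in E2A-KO LMPP (-0.63) were also among the falls. After quantile normalization Cdc73 (-0.30), Leo1 (-0.19) and, in WT LMPP, Men1 (-0.28) were not called. Of 5 reported targets, Gata2, a stem cell factor activated by MECOM, measured 6.71 and 6.55 in E2A-KO LMPP, 6.49 and 6.57 in WT LMPP and 9.24 and 9.47 in WT LSK FLT3-, a change of -2.73 in E2A-KO LMPP and -2.83 in WT LMPP. Mfn2, a reported PRDM16 target in mitochondrial fusion, was at -0.56 in WT LMPP (adjusted p = 0.0482). That call was lost without 5 of the 6 arrays in turn (-0.26 without WT LMPP replicate 2). It was also lost after quantile normalization (-0.17), with probe sets averaged (-0.099) and with only 4 arrays. Hif1a, a reported MEIS1 target, fell by 0.62 in E2A-KO LMPP (adjusted p = 0.0211). The Hif1a call was lost after quantile normalization, without E2A-KO LMPP replicate 1 (-0.54) and without WT LSK FLT3- replicate 1 (-0.75) or replicate 2 (-0.49).

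**Figure D5:**
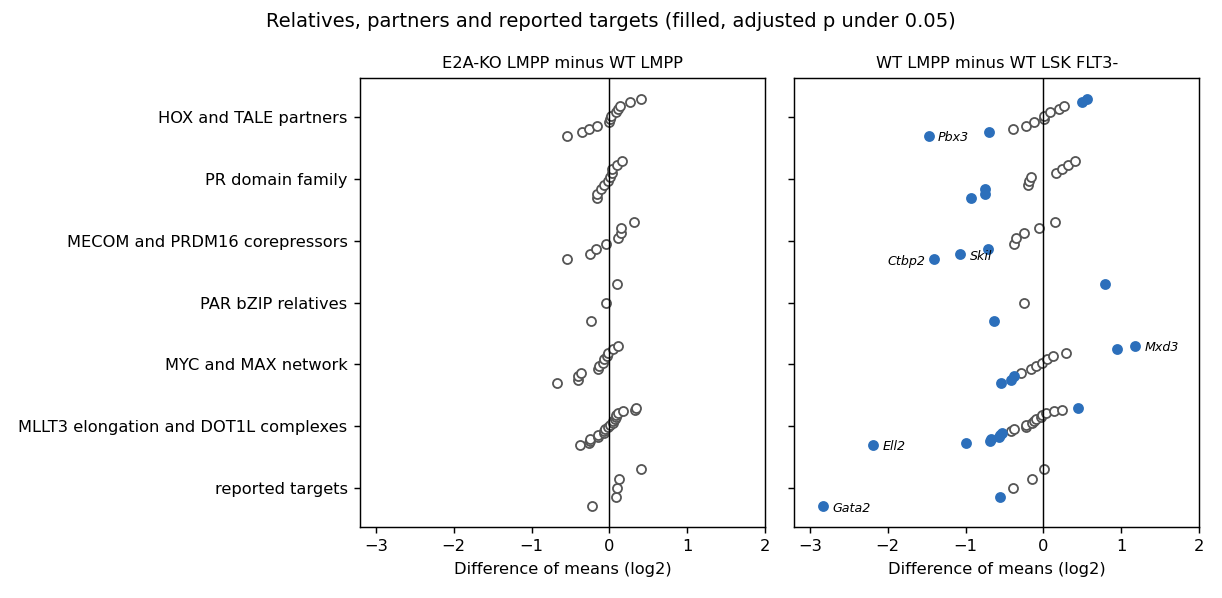
Difference of means (log2) of 70 relatives, partners and reported targets, by list, for E2A-KO LMPP minus WT LMPP on the left and WT LMPP minus WT LSK FLT3- on the right; filled points have an adjusted p under 0.05 and open points do not. No point is filled on the left, and on the right 21 are filled below 0 and 6 above 0 before quantile normalization.

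Markers of some other cells moved with the fall of the set. The summed linear level of 6 of 7 listed megakaryocyte markers was 155 to 157 in E2A-KO LMPP, 121 to 122 in WT LMPP and 509 to 548 in WT LSK FLT3-. Against WT LSK FLT3-, 4 of these 6 markers fell in E2A-KO LMPP (26.5% of all genes called lower) and 5 in WT LMPP (23.7%). Among them Itga2b, also expressed in some stem cells and picked after its values were seen, measured 5.92 and 5.52 in E2A-KO LMPP, 5.23 and 5.14 in WT LMPP and 8.09 and 7.93 in WT LSK FLT3-. The 3 measured plasma cell markers summed to 274 to 314 in E2A-KO LMPP, 158 to 172 in WT LMPP and 1279 to 1438 in WT LSK FLT3-. Of these, Igha and Jchain fell in both LMPP groups, while Sdc1 rose, at 7.91 and 8.14 in E2A-KO LMPP and 7.04 and 7.15 in WT LMPP, against 5.48 and 5.61 in WT LSK FLT3-. The 2 measured erythroid markers summed to 46.9 to 54.0 in E2A-KO LMPP, 44.4 to 45.1 in WT LMPP and 136 to 146 in WT LSK FLT3-. Klf1 fell in both LMPP groups, and Hba-a1, below the array median on all 6 arrays, rose in WT LMPP. Endothelial markers, relevant because Mecom and Meis1 are also expressed in vessels, did not follow: their sum was 122 to 125 in E2A-KO LMPP, 115 to 132 in WT LMPP and 111 to 117 in WT LSK FLT3-. Of these 6 markers, 1 rose and 0 fell in each LMPP group against WT LSK FLT3-. All genes called higher and lower were 11% and 26.5% in E2A-KO LMPP, and 10.4% and 23.7% in WT LMPP. After centring, 0 endothelial markers rose and 1 fell in E2A-KO LMPP, and 0 rose and 0 fell in WT LMPP. Cdh5 and Pecam1 were below the array median on all 6 arrays, Pecam1 only just in E2A-KO LMPP (4.02 on both arrays). Kdr, Plvap and Cldn5 were above it on all 6, so an endothelial signal is not shown to be absent. The part of the megakaryocyte, plasma cell and erythroid signals in the fall of the 6 genes was not tested. Mature myeloid markers summed to 592 to 640 in E2A-KO LMPP, 1561 to 1675 in WT LMPP and 1150 to 1160 in WT LSK FLT3-. Of the 5, 4 fell in E2A-KO LMPP against WT LMPP (0.995% of all genes called lower), beside the uncalled differences of the set between those groups. Against WT LSK FLT3-, 4 fell in E2A-KO LMPP (26.5% of all genes called lower) and 3 rose in WT LMPP (10.4% called higher).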

How the data were processed

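The deposited values are probe set intensities on a linear scale from Affymetrix 3' expression arrays, produced by the authors using RMA, per the submitters' processing notes. The sources used here do not say if RMA was run once over all arrays. RMA corrects background, normalizes arrays and summarises probes. Per the labels' protocols, RNA from small sorted samples was amplified in 2 rounds, which favours transcript 3' ends. From the deposited values, 4.23 to 25594, log2 was taken. Groups follow the sample titles; a description field naming all samples wild-type LMPP was set aside. The platform annotation pairs 34958 of the 45101 probe sets with 1 symbol, 932 with several and 9211 with none; the brightest probe set by mean stood for each of 18194 genes.

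Tests used limma 3.58.1 in R 4.3.3 on all 6 arrays with 1 mean per group (3 residual and 5.8 prior degrees of freedom), two-sided, with Benjamini-Hochberg adjustment over all genes, or over all probe sets for probe set values, and a threshold of 0.05. The fit was tested on simulated data. For arrays there is no read depth, and 2 arrays per group limit precision. Figures were drawn with matplotlib 3.10.9.

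The 6 genes and all lists were chosen with earlier results of these data known. Named from each list were up to 4 called genes with the largest change per comparison, or the 2 largest where none passed, and for each of the 6 genes the 3 most alike. Alternatives were the replicate number as a block, only 4 arrays, a filter on dim genes, the mean of all probe sets, quantile normalization, centring, a variance trend and each array left out. For counts of the 6 genes they also included adjustment over all probe sets, a threshold of 0.1 and a 2-fold minimum. Protein sequences and probe positions were not used here. Some listed genes are not reported here.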

Additional observations from a re-analysis of the deposited data

How the results depend on the processing

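The 6 falls of each LMPP group against WT LSK FLT3- kept their direction and calls with each array left out, with 4 arrays, without the dimmest 40% of genes, under both scalings and with a variance trend; the exception was the mean of all probe sets, which left 4 of 6 calls in each and turned Meis1 to 0.21 in E2A-KO LMPP. In E2A-KO LMPP against WT LMPP, 0 of 6 were called under all 16 alternatives. Not all of these are separate checks of that comparison. Leaving out either WT LSK FLT3- array repeats the fit with 4 arrays, and a 2-fold minimum can only remove calls. Signs of uncalled differences there turned for Meis1 (-0.067 to 0.14 with an array left out), Prdm16 (-0.62 to 0.37) and Mllt3 (-0.13 to 0.062), among list genes for Prdm9 (-0.36 to 0.035) and Prdm2 (-0.13 to 0.45), and, with probe sets averaged, for Mxd1 (0.076). With probe sets averaged, Mllt10 against WT LSK FLT3- turned to 0.36 in E2A-KO LMPP, a called rise, and to 0.11 in WT LMPP, not called. Mga turned to 0.00375 in E2A-KO LMPP after quantile normalization. The cause of these turns was not tested. Replicate numbers did not pair the samples (correlations of deviations 0.02, -0.04 and -0.02); with the replicate number as a block, 0 of 6, 6 of 6 and 6 of 6 of the set were called, genes called went to 200, 5914 and 6535, and Myc lost its call (adjusted p = 0.054). Genes called between E2A-KO LMPP and WT LMPP numbered 250, with 89 from 4 arrays, 548 with a variance trend and 89 to 164 with an array left out. Against WT LSK FLT3-, genes called numbered 6822 in E2A-KO LMPP and 6198 in WT LMPP, 3617 and 3496 after quantile normalization, and 2944 and 2370 without WT LSK FLT3- replicate 1 or 2989 and 2449 without replicate 2, where fewer arrays were fitted. Of the named list genes, 14 of 23 in E2A-KO LMPP and 15 of 22 in WT LMPP lost a call in at least 1 alternative, and Mxd3 gained one between E2A-KO LMPP and WT LMPP (-1.01 without WT LMPP replicate 1). Dim probe sets near the array median limit what can be read from Prdm16 1429309_at, Mycn 1425922_a_at and Mllt3 1453622_s_at.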
